A study of Mus musculus with 8 samples.

Results

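The tricarboxylic acid (TCA) cycle enzymes described here were 9 nuclear genes, chosen by name: Cs, Idh2, Idh3a, Idh3b, Idh3g, Ogdh, Suclg1, Fh1 and Mdh2. They were 9 of the 24460 genes in the deposited counts, and all 9 were among the 14296 genes that passed the filter on low counts. RNA-Seq had been performed on wild type mouse embryonic fibroblasts (MEFs) exposed to RHPS4 at 0 µM (n = 3), 2 µM (n = 3) or 10 µM (n = 2), RHPS4 being a small molecule that binds G-quadruplexes (G4), structures that guanine-rich strands can fold into. The labels give exposures of 16 or 24 h without saying which was used for these libraries, and nothing says that the libraries of a group came from separate cultures, so the p-values measure the spread between these libraries, which may be technical.

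The TCA cycle runs in the mitochondrial matrix, where it oxidizes the acetyl group of acetyl-CoA to carbon dioxide and passes electrons on as NADH and as reduced flavin. Citrate synthase starts it by joining acetyl-CoA to oxaloacetate, isocitrate dehydrogenase and oxoglutarate dehydrogenase carry out the oxidative decarboxylations, and succinyl-CoA ligase, fumarase and malate dehydrogenase lead back to oxaloacetate. All of its enzymes are encoded in the nucleus and imported. The cycle depends on the respiratory chain, part of which is encoded in mtDNA, to reoxidize NADH, and mitochondrial gene expression is what the study examined under the ligand.

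None of the 9 mRNAs passed the test against untreated cells at either dose. At 2 µM 0 of 9 rose and 0 of 9 fell, where 1.51% of all genes tested rose and 2.65% fell (4.16% in all). At 10 µM again 0 of 9 rose and 0 of 9 fell, where 6.81% of all genes rose and 7.11% fell (13.9% in all). Between the 2 doses, 1 of 9, Idh3a, fell at 10 µM relative to 2 µM, where 11.5% of all genes rose and 11.9% fell (23.4% in all). A gene counted as changed when the quasi-likelihood test of edgeR gave it a p under 0.05 after Benjamini-Hochberg adjustment over all genes tested. By a stricter rule that calls a differentially expressed gene (DEG), an adjusted p under 0.01 with a fold change over 1.5, no member was called in any of the 3 comparisons, where 0.497%, 3.09% and 5.51% of all genes were, in the order above. At an unadjusted p under 0.05 the members' counts were 1, 1 and 3 in the same order, beside 21.3, 29.4 and 36.5% of all genes. DESeq2 called 0, 0 and 2 members, beside 5.10, 14.6 and 23.8% of the genes to which it gave an adjusted p. These are bulk cultures, in which fewer cells and less RNA per cell cannot be told apart.

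The depth was 10455965 to 26688121 counts per library. The smallest count of any member in any library was 827, for Suclg1, for which counting alone gives an error of 3.48%. The share of counts from mtDNA was 13.2 to 14.4% in untreated cells, 7.40 to 8.26% under 2 µM and 5.33 to 6.32% under 10 µM. TMM scaling, which was used for the CPM (counts scaled to a common library size) and the tests below, left the median log2 fold change of all genes at -0.01, 0.02 and 0.03 in the 3 comparisons, whereas scaling by total counts alone placed it at 0.07, 0.23 and 0.16, so changes below are relative to the TMM scale. The fibroblast markers were present in every library, with a summed level of 9144 to 11113 CPM, and the lists for epithelial, endothelial, blood and muscle cells each summed to under 8 CPM in every library, with Hbb-bt and Hba-a1 at 0. Of the 8 fibroblast markers Col3a1 and Pdgfrb fell at both doses and the others passed neither test. The neural list summed to 43.7 to 56.0 CPM. Most of it came from Map2, with a mean of 48.9, 45.7 and 44.1 CPM at 0, 2 and 10 µM. Map2 passed neither test. Of the list only Tubb3 rose, from 2.80 CPM in untreated cells to 7.30 CPM at 10 µM. The part of any other cells in the results below was not tested.

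**Figure D1:**
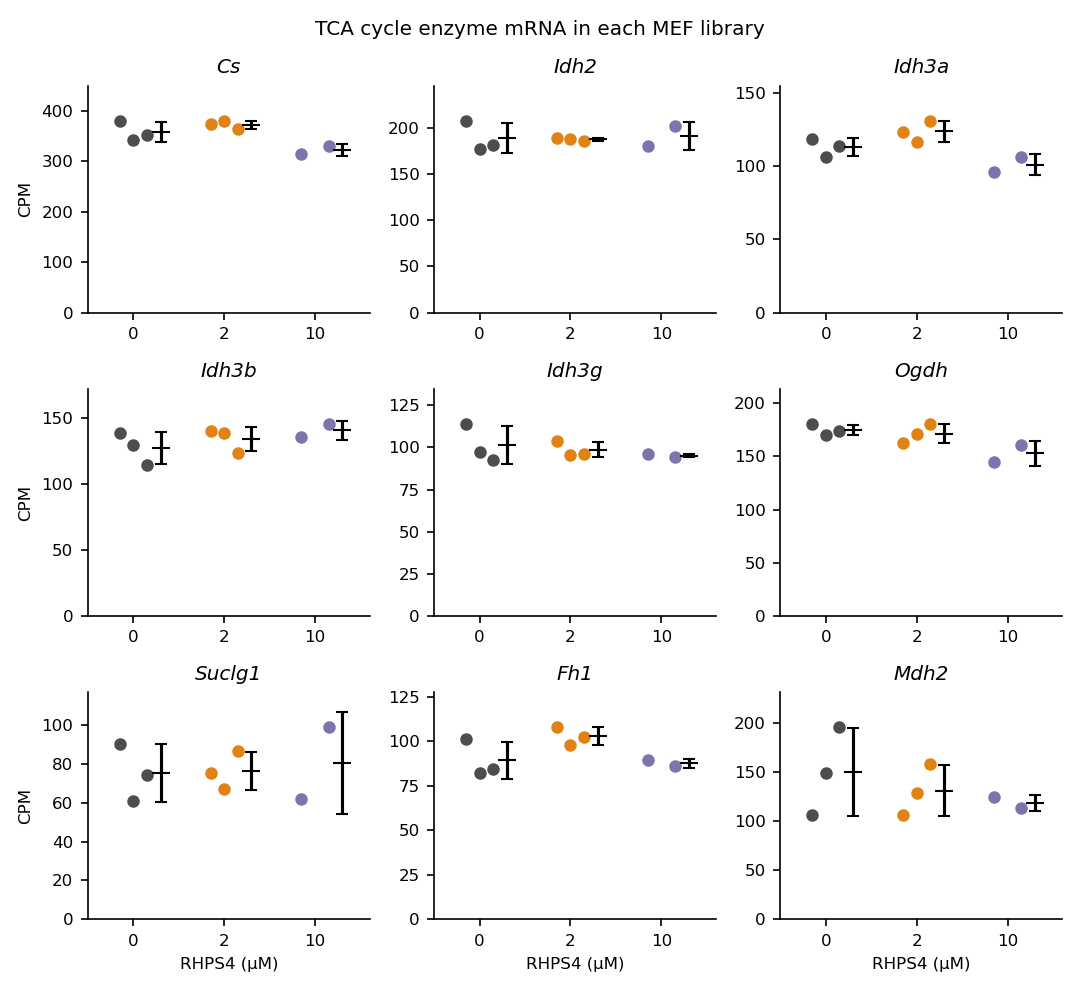
CPM of the 9 enzymes (y axes, from 0) at 0, 2 and 10 µM RHPS4 (x axes). Points are single libraries, and bars beside them are the mean ± SD (n = 3, 3 and 2). The groups stay close for each gene, with the widest scatter for Suclg1 and Mdh2.

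The first untreated library is set apart in what follows. It was the shallowest library, and it held the highest CPM of the 3 untreated libraries for 8 of the 9 members and for 54.5% of the genes with a mean of at least 50 CPM. Without it, 2061 genes were called at 2 µM in place of 595. Calls of the members that change without it are given in both ways. Without it the median log2 fold change of the members at 2 µM was 0.11 in place of 0.04, and that of Idh2 there 0.071 in place of -0.0088, that of Suclg1 0.19 in place of 0.04 and that of Cs 0.11 in place of 0.06, none of the 3 genes being called in either fit.

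The start regions of the genes were examined because RHPS4 binds G4. A motif of 4 runs of GGG with 1 to 7 bases between runs, on either strand, was searched in the 250 bases before each RefSeq start of the GRCm38.p6 assembly. It was in 0 of the 8 members that the RefSeq table holds, Idh3a being the other, and in 18.5% of 27025 genes. With up to 12 bases between runs, a setting chosen after seeing that no member matched, it was in 2 members, Cs and Idh2, and in 28.0% of genes. Both stretches are shown because they hold the members' closest runs, in capitals, GGG in Cs and CCC (GGG on the other strand) in Idh2. Each is 110 bases long and is read 5′ to 3′ on the strand of the gene. The first is from chr10:128337617-128337726 on the plus strand, the second from chr7:80115393-80115502 on the minus strand.
Cs: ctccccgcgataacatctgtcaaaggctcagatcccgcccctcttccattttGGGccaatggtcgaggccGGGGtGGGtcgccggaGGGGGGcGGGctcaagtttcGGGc
Idh2: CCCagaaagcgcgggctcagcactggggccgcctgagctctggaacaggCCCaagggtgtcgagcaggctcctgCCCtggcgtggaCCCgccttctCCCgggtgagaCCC
A match to these letters is a description of the sequence, and neither gene passed the test at either dose (below).

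The untreated level of the members was compared per kilobase of annotated exons, in CPM per kilobase, since longer genes collect more reads. Idh2 was highest at 72.9 ± 6.40 (SD, n = 3), followed by Cs at 62.1 ± 3.43 and by Mdh2 at 42.1 ± 12.6. Idh3g (37.5 ± 4.17) and Idh3b (37.2 ± 3.53), the regulatory subunits of the NAD-dependent isocitrate dehydrogenase, overlapped with each other and with Mdh2. Ogdh (32.1 ± 0.933), Fh1 (26.4 ± 3.07) and Idh3a (22.3 ± 1.24) came next, and Suclg1 was lowest at 16.3 ± 3.21, so that the highest and lowest differed 4.47-fold. The libraries of the other neighbours in this order did not overlap. Mdh2, at 29.7 to 54.9 over its libraries, also overlapped with Ogdh (31.3 to 33.1) and Fh1 (24.3 to 29.9). The order depends on the length used. Over the longest transcript Cs came first at 119 ± 6.61 and Idh2 second at 105 ± 9.26, with overlapping libraries, and Idh3a moved ahead of Ogdh and Fh1.

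Citrate synthase (Cs, chr10:128337734-128362479, plus strand, ENSMUSG00000005683) catalyses the entry of acetyl-CoA and is widely measured as a marker of mitochondrial content. Its level was 381, 342 and 353 CPM in the 3 untreated libraries, 374, 380 and 364 CPM under 2 µM and 315 and 330 CPM under 10 µM. Both 10 µM libraries lay below all others, while the 0 and 2 µM libraries overlapped. The log2 fold change was 0.06 (95% CI -0.09 to 0.20, adjusted p = 0.682) at 2 µM and -0.15 (95% CI -0.32 to 0.01, adjusted p = 0.207) at 10 µM, and neither passed the test. Between 2 and 10 µM it was -0.21 (95% CI -0.38 to -0.04), with an adjusted p of 0.0698. The first untreated library enters this contrast only through scaling, filtering and the shared estimate of the spread. Without it the same value was -0.24 with an adjusted p of 0.0152, where 29.0% of all genes were called. DESeq2 gave -0.25 and an adjusted p of 0.0377, where it called 23.8% of genes. Scaling by total counts alone gave -0.073 (adjusted p = 0.479), and leaving out any other library gave an adjusted p of 0.0546 to 0.183. A share of 0.403% of the 75-base stretches of its transcripts also occurs in Csl, and no other member shared such a stretch with another gene.

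Isocitrate dehydrogenase exists in the matrix in an NADP-dependent and an NAD-dependent form, which act on the same substrate. Idh2 (chr7:80094846-80115392, minus strand, ENSMUSG00000030541) encodes the NADP-dependent enzyme. Its CPM were 208, 177 and 181 in untreated cells, 189, 187 and 186 under 2 µM and 180 and 201 under 10 µM. The groups overlapped throughout, and the highest library of all was 1.17 times the lowest, the narrowest range among the members. Its log2 fold change was -0.01 (95% CI -0.18 to 0.16) at 2 µM and 0.02 (95% CI -0.17 to 0.21) at 10 µM.

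Idh3a, Idh3b and Idh3g together form the NAD-dependent enzyme of the cycle, with Idh3a as the catalytic subunit. Idh3a (chr9:54586334-54604661, plus strand, ENSMUSG00000032279) had 119, 106 and 114 CPM in untreated cells, 124, 116 and 131 CPM under 2 µM and 95.9 and 106 CPM under 10 µM. The 2 µM libraries lay above both 10 µM libraries, and the untreated libraries lay between and overlapped with both groups. Idh3a fell by 0.29 on the log2 scale (95% CI -0.48 to -0.10, SE 0.0864) from 2 to 10 µM, with an adjusted p of 0.0313 in edgeR's quasi-likelihood test. Against untreated cells the log2 fold change was 0.13 (95% CI -0.03 to 0.30, adjusted p = 0.341) at 2 µM and -0.16 (95% CI -0.35 to 0.03, adjusted p = 0.245) at 10 µM. The call between doses was lost when the first 2 µM library (adjusted p = 0.0695), the third 2 µM library (adjusted p = 0.0661) or the first 10 µM library (adjusted p = 0.133) was left out, with log2 fold changes of -0.30, -0.27 and -0.26. It was also lost with a replicate block (-0.26, adjusted p = 0.0661) and under scaling by total counts alone (-0.16, adjusted p = 0.179), so that it held in 12 of 17 alternatives.

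The other subunits of the same enzyme passed no test. Idh3b (chr2:130279309-130284547, minus strand, ENSMUSG00000027406) had 138, 129 and 114 CPM in untreated cells, 140, 138 and 123 CPM under 2 µM and 135 and 145 CPM at 10 µM, with all groups overlapping. From 2 to 10 µM its log2 fold change was 0.07 (95% CI -0.14 to 0.28, adjusted p = 0.654). Idh3g (chrX:73778963-73786897, minus strand, ENSMUSG00000002010) had 114, 97.4 and 92.6 CPM in untreated cells, 104, 95.7 and 96.2 CPM under 2 µM and 95.9 and 94.4 CPM under 10 µM. Its log2 fold change between the doses was -0.05 (95% CI -0.26 to 0.16, adjusted p = 0.742), and its groups overlapped as well. Whether the change of Idh3a differed from that of the other subunits was not tested. The annotated ends of Idh3b and of Nop56, on the opposite strand, share 5 bases.

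Because the subunits work as one enzyme, their counts were also set against each other within each library, where scaling cancels. The ratio of Idh3a to Idh3b counts was 0.859, 0.822 and 0.999 in untreated cells, 0.885, 0.841 and 1.06 at 2 µM and 0.710 and 0.733 at 10 µM. Both 10 µM libraries were below every other library. The ratio of Idh3a to Idh3g was 1.04 to 1.23 in untreated cells, 1.19 to 1.36 at 2 µM and 1.00 to 1.13 at 10 µM, so that the 10 µM libraries were below those at 2 µM and overlapped those in untreated cells. That of Idh3b to Idh3g was 1.21 to 1.33, 1.28 to 1.45 and 1.41 to 1.54, with the 10 µM libraries above those in untreated cells. These ratios rest on the same counts as the test of Idh3a and are not corrected for length, so they are given as a description. The level of Idh3b ran against the depth of the library (below), which a ratio does not cancel. How often such ratios lie apart for other pairs of genes was not computed.

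**Figure D2:**
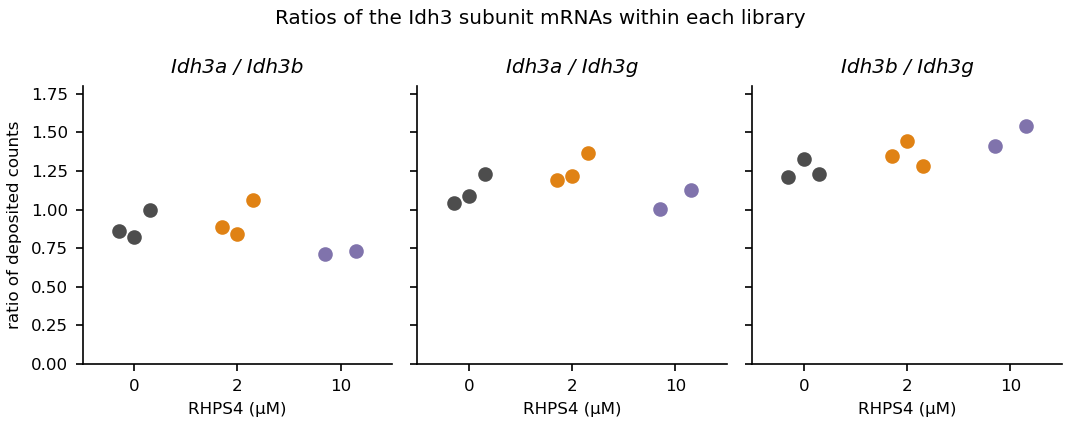
Ratio of deposited counts of Idh3a to Idh3b, Idh3a to Idh3g and Idh3b to Idh3g (y axes, from 0) against RHPS4 dose in µM (x axes), 1 point per library. The Idh3a to Idh3b ratio was 0.710 and 0.733 in the 10 µM libraries and 0.822 to 1.06 in the other 6.

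Ogdh (chr11:6291633-6356642, plus strand, ENSMUSG00000020456), the first subunit of the oxoglutarate dehydrogenase complex, had 180, 171 and 174 CPM in untreated cells, 163, 171 and 181 CPM under 2 µM and 144 and 161 CPM under 10 µM. Both 10 µM libraries were below every untreated library and, by a small margin, below every 2 µM library. The log2 fold change at 10 µM was -0.20 (95% CI -0.37 to -0.02), which had an unadjusted p of 0.0332 and an adjusted p of 0.133. At 2 µM it was -0.03 (95% CI -0.19 to 0.13).

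Suclg1 (chr6:73248382-73276911, plus strand, ENSMUSG00000052738) encodes the alpha subunit that the ATP-forming and GTP-forming succinyl-CoA ligases share. It had 90.5, 60.9 and 74.7 CPM in untreated cells, 75.5, 67.4 and 87.0 CPM under 2 µM and 62.0 and 99.2 CPM under 10 µM. The 2 libraries at 10 µM spanned nearly the whole range of the series, and the SD of log2 CPM within groups was 0.30, larger than for 97.4% of the 4323 genes with a mean of at least 50 CPM. The log2 fold changes were 0.04 (95% CI -0.35 to 0.42) at 2 µM and 0.10 (95% CI -0.33 to 0.53) at 10 µM. Changes of up to these bounds were therefore not excluded with these libraries. The value at 10 µM was -0.30 (adjusted p = 0.444) without the second 10 µM library and 0.37 without the first.

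Fumarase (Fh1, chr1:175600374-175625635, minus strand, ENSMUSG00000026526) hydrates fumarate to malate. Its CPM were 101, 82.5 and 84.4 in untreated cells, 108, 98.1 and 102 under 2 µM and 89.4 and 86.0 under 10 µM. The 2 µM libraries were above both 10 µM libraries, and the first untreated library lay among those at 2 µM. The log2 fold change at 2 µM was 0.21 (95% CI 0.02 to 0.40, adjusted p = 0.200), the largest among the members for that comparison, and at 10 µM it was -0.02 (95% CI -0.23 to 0.19, adjusted p = 0.903). Without the first untreated library Fh1 passed the test at 2 µM, with a log2 fold change of 0.31 and an adjusted p of 0.0171, where 14.1% of all genes did. Without the second or the third it did not pass, with 0.16 (adjusted p = 0.472) and 0.17 (adjusted p = 0.511). Leaving out any one 2 µM library gave an adjusted p of 0.242 to 0.467. Between 2 and 10 µM the value was -0.23 (adjusted p = 0.111) with all libraries. It was -0.26 (adjusted p = 0.0162) without the first untreated library, where 29.0% of all genes were called.

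Mdh2 (chr5:135778480-135790398, plus strand, ENSMUSG00000019179) encodes the mitochondrial malate dehydrogenase, which regenerates oxaloacetate. Its CPM were 106, 149 and 195 in untreated cells, 106, 129 and 158 under 2 µM and 124 and 113 under 10 µM. The groups overlapped, and the spread among the untreated libraries, an SD of 44.9 CPM around a mean of 150, was the widest of the members. Its log2 fold change was -0.20 (95% CI -0.62 to 0.21, adjusted p = 0.578) at 2 µM and -0.35 (95% CI -0.82 to 0.12, adjusted p = 0.313) at 10 µM, the lowest of the 9 in both. Without the first untreated library, the lowest of its group here, the value at 10 µM was -0.56 with an adjusted p of 0.0332. In that fit 19.4% of all genes were called at 10 µM. Without the third, the highest of that group, the value of Mdh2 at 10 µM was -0.10 with an adjusted p of 0.781. It was -0.13 under scaling by total counts alone and -0.12 with a replicate block (adjusted p = 0.674 and 0.606).

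The level of Mdh2 moved with the depth of the library. From the library with the fewest to the one with the most counts it was 106, 106, 129, 113, 124, 158, 149 and 195 CPM, a Spearman's rho of 0.90 and a Pearson's r of 0.94 between log2 values over the 8 libraries. Of the genes with a mean of at least 50 CPM, 3.24% had a larger absolute rho with depth. Idh3b ran the other way, with a rho of -0.76 and an r of -0.88, and the remaining members had a rho between -0.81 (Idh2) and 0.07 (Ogdh). These correlations are descriptions over libraries that also differ in dose. With the log2 total count as a covariate, an alternative chosen after seeing this, the log2 fold change of Mdh2 was 0.12 (adjusted p = 0.433) at 2 µM and -0.04 (adjusted p = 0.781) at 10 µM. In that fit Cs fell at 10 µM (-0.19, adjusted p = 0.0395), where 19.0% of all genes were called. The part of depth in the values of Mdh2 was not tested further.

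**Figure D3:**
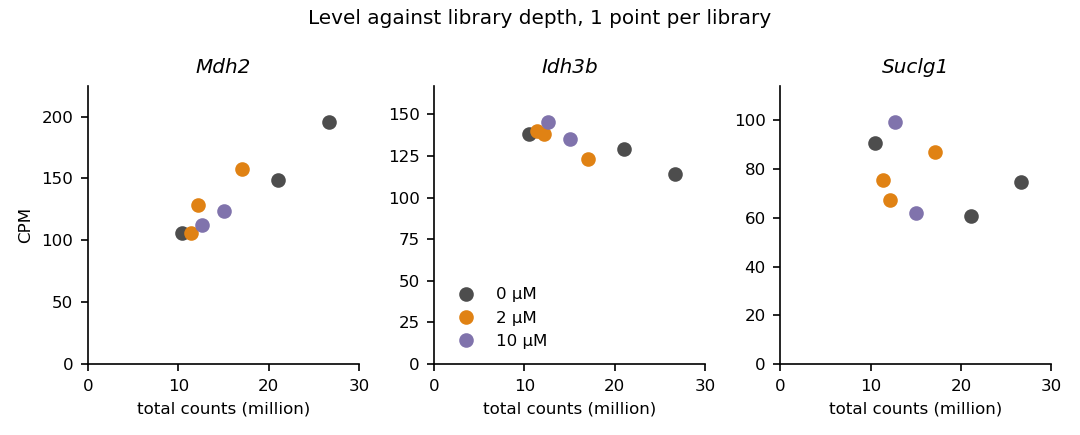
CPM of Mdh2, Idh3b and Suclg1 (y axes, from 0) against the total count of the library (x axes), 1 point per library, coloured by dose. Mdh2 runs from 106 CPM in the shallowest library to 195 CPM in the deepest, Idh3b is lowest in the deepest library at 114 CPM, and Suclg1 follows no such order.

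The size of change that the data leave room for was narrow for most members. The 95% confidence interval of the fold change lay within 1.5-fold in either direction for 8 of 9 members in each of the 3 comparisons, the exception being Mdh2. Over all genes tested the share was 64.4% at 2 µM, 55.4% at 10 µM and 7148 of 14296 genes between the doses, and over genes with a mean of at least 50 CPM it was 94.2, 84.1 and 78.3%. The ranges of the groups were apart for 0 of 9 members at 2 µM, for 2 (Cs and Ogdh) at 10 µM and for 4 (Cs, Idh3a, Ogdh and Fh1) between the doses, where they were apart for 25.7, 42.9 and 51.8% of all genes. The median log2 fold change of the 9 was 0.04, -0.09 and -0.14 in the 3 comparisons, beside -0.01, 0.02 and 0.03 for all genes and 0.04, -0.09 and -0.12 for those with a mean of at least 50 CPM. The comparisons at 2 and at 10 µM share the untreated libraries.

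**Figure D4:**
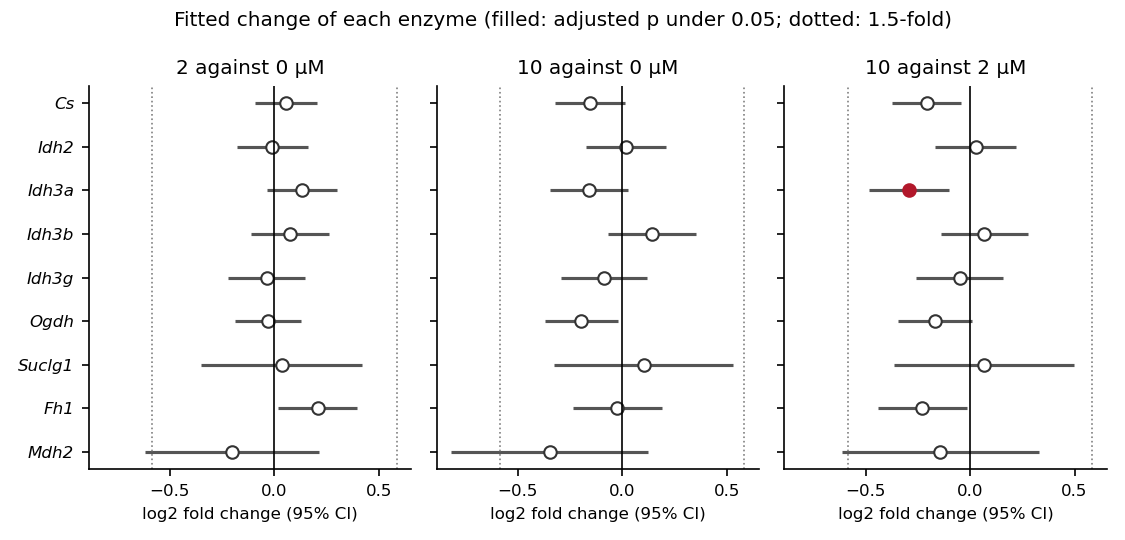
Log2 fold change (x axes) of each enzyme at 2 against 0, 10 against 0 and 10 against 2 µM RHPS4, with the 95% confidence interval as a line. The filled point is Idh3a between the doses (-0.29), the one value with an adjusted p under 0.05, and the dotted lines mark a 1.5-fold change, which only the intervals of Mdh2 cross.

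Summed over the 9 members the level was 1437, 1315 and 1383 CPM in untreated cells, 1382, 1383 and 1428 CPM under 2 µM and 1241 and 1337 CPM under 10 µM. As a share of the counts of nuclear genes, which leaves mtDNA out, this was 0.146 to 0.155% in untreated cells, 0.150 to 0.153% at 2 µM and 0.144 to 0.155% at 10 µM. On the CPM scale both 10 µM libraries were below every 2 µM library and overlapped the untreated ones, and on the scale of nuclear counts all groups overlapped. The share of counts from mtDNA, in contrast, was lower in every treated library than in every untreated one.

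The members were also compared with one another across libraries. Of the 36 pairs, 27 had a positive Pearson's r between log2 CPM over the 8 libraries, with a median of 0.29, and over all pairs of the 4323 genes with a mean of at least 50 CPM the median was 0.10, with 55.6% of pairs positive (75% of the members' pairs). The highest was 0.84, between Cs and Idh3a, and the lowest -0.94, between Idh3b and Mdh2, the pair that ran in opposite directions with depth. The pairs share genes and libraries, so they are not independent, and these values are given as a description. Whether the members vary together more than other genes was not tested. Among 8965 genes with a mean of at least 10 CPM that are no members, the 5 most like the members' mean standardized level were Aurka (r = 0.99), Colgalt1 (0.99), Hspb8 (0.98), Cdc123 (0.98) and Nrn1 (0.97). By Spearman's rho, 3 of these 5 stayed within the first 5 ranks, Colgalt1 and, tied with each other and with other genes, Aurka and Cdc123. None of the 5 was called in any comparison, and with 8 libraries 145 genes had an r over 0.9.

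Of 8 further enzyme genes of the cycle 1 passed the test. At 2 µM none of Dlst, Dld, Sucla2, Suclg2, Sdha, Sdhb, Sdhc and Sdhd was called, where 4.16% of all genes were. At 10 µM 1 fell and 0 rose, where 7.11% of all genes fell and 6.81% rose. The 1 that fell was Sdha, the flavoprotein subunit of succinate dehydrogenase, which passes electrons directly into the respiratory chain. It had 131, 138 and 144 CPM in untreated cells, 133, 131 and 121 CPM under 2 µM and 117 and 95.8 CPM under 10 µM. Both 10 µM libraries were below all 6 others. The log2 fold change of Sdha at 10 µM was -0.37 (95% CI -0.58 to -0.16, adjusted p = 0.0269). This held in 11 of 17 alternatives, and was lost under scaling by total counts alone and with only the 2 groups compared. The call was lost without the second or the third untreated library, the second 2 µM library or the second 10 µM library, with an adjusted p of up to 0.258 over the alternatives. Sdhc, which anchors the same complex in the membrane, had 62.4 ± 7.41 CPM in untreated cells and 77.3 ± 5.77 CPM at 10 µM (n = 3 and 2), and its log2 fold change of 0.31 did not pass the test (adjusted p = 0.0538). The remaining 6 had log2 fold changes of -0.12 (Dlst) to 0.18 (Suclg2) at 10 µM. Over these 17 genes, the 9 members included, the median log2 fold change was 0.07 at 2 µM and -0.02 at 10 µM.

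The genes around the cycle were set beside its enzymes by lists of known function, with levels as mean ± SD over 3 libraries (2 at 10 µM). The 16 genes for pyruvate entry included the pyruvate carrier, the pyruvate dehydrogenase complex and its kinases and phosphatases. At 2 µM 0 of them rose and 3 fell, where 1.51% of all genes rose and 2.65% fell. At 10 µM 1 rose and 2 fell, where 6.81% of all genes rose and 7.11% fell. Pdk1, a kinase that inhibits pyruvate dehydrogenase, fell from 121 ± 9.05 CPM to 84.7 ± 4.55 CPM at 2 µM (log2 fold change -0.51, adjusted p = 0.00795) and to 78.9 ± 6.29 CPM at 10 µM (-0.61, adjusted p = 0.00162). Its call at 2 µM was lost without the second 2 µM library, with an adjusted p of 0.0748. Pdk4, another such kinase, fell at 2 µM (-0.63, adjusted p = 0.0376) and Pdp1, a phosphatase that activates the complex, fell there too (-0.32, adjusted p = 0.0465). At 10 µM Mpc2, a subunit of the mitochondrial pyruvate carrier, rose (0.56, adjusted p = 0.0161) and Pdp2, another phosphatase, fell (-0.37, adjusted p = 0.0350). These 4 calls held in 11, 4, 15 and 11 of 17 alternatives. That of Pdp1 was lost under 6 other settings, DESeq2 and the replicate block among them, as well as on leaving out libraries. The Pdp2 call was lost under scaling by total counts alone and with only the 2 groups compared, as well as on leaving out libraries. The Pdk4 call was lost with depth as a covariate. It was also lost without any one 2 µM library or the second or the third untreated library (adjusted p of up to 0.186). That of Pdp1 was lost without any one library but the first untreated one (up to 0.208). That of Mpc2 was lost without the second untreated or the second 10 µM library (up to 0.166), and that of Pdp2 without the second or the third untreated library or either 10 µM library (up to 0.280). The list's median log2 fold change was 0.01 at both doses.

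A list of 19 genes, written with earlier results of these data known, covers enzymes that feed carbon into the cycle or draw it off. At 2 µM 0 rose and 0 fell, where 4.16% of all genes were called. There 2 had an unadjusted p under 0.05, as 21.3% of all genes did. At 10 µM 7 rose and 1 fell, where 6.81% of all genes rose and 7.11% fell. Gpt2, which interconverts pyruvate and glutamate with alanine and oxoglutarate, rose from 69.2 ± 1.37 to 229 ± 10.1 CPM (log2 fold change 1.73, SE 0.0772, adjusted p = 4.6e-07). Pck2, which turns oxaloacetate into phosphoenolpyruvate in the matrix, rose from 101 ± 5.20 to 264 ± 19.1 CPM (1.39, SE 0.0819). Asns, which makes asparagine from aspartate, rose by 1.16, Aldh18a1, which starts proline synthesis from glutamate, by 0.90, and Got1, the cytosolic aspartate aminotransferase, by 0.49 on the log2 scale. Me2, the mitochondrial malic enzyme that makes pyruvate from malate, fell from 114 ± 10.9 to 84.7 ± 4.38 CPM (-0.42, adjusted p = 0.0116). Its call held in 15 of 17 alternatives, and was lost under scaling by total counts alone and without the first 10 µM library. The calls of Gpt2, Pck2, Asns, Aldh18a1 and Got1 held in all 17 alternatives. Those of the other 2 that rose, Pcx and Mut, named after their values were seen, held in 12 and 11 of 17. Both were lost by DESeq2 and without the second or the third untreated library or the second 10 µM library. That of Pcx was also lost with only the 2 groups compared. That of Mut was also lost without a filter and without the first 10 µM library. Over the alternatives their adjusted p was up to 0.286 and 0.167. The median log2 fold change of the list was 0.01 at 2 µM and 0.14 at 10 µM.

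Of 4 cytosolic enzymes that act on cycle intermediates, 0 rose and 1 fell at each dose, where 2.65 and 7.11% of all genes fell. At 2 µM the 1 that fell was Idh1, the cytosolic NADP-dependent isocitrate dehydrogenase, with 96.3 ± 10.4 CPM in untreated cells and 76.5 ± 2.34 CPM at 2 µM (-0.33, adjusted p = 0.0493, called in 5 of 17 alternatives, and lost on leaving out any library but the first untreated one). At 10 µM it was Acly, which splits exported citrate into acetyl-CoA and oxaloacetate, with 542 ± 38.2 CPM in untreated cells and 389 ± 6.46 CPM at 10 µM (-0.48, adjusted p = 0.00348, called in all 17 alternatives). Of 11 carriers that move these metabolites across the inner membrane 9 were tested. At 2 µM 0 were called and at 10 µM 1, where 4.16 and 13.9% of all genes were. Slc25a10, the dicarboxylate carrier, fell from 58.7 ± 1.36 to 44.9 ± 2.49 CPM (-0.38, adjusted p = 0.00734), a call that was lost under scaling by total counts alone (adjusted p = 0.115). The median log2 fold change was 0.01 and -0.14 for the cytosolic enzymes and 0.13 and -0.14 for the carriers at 2 and 10 µM. Whether any of these lists differed from the 9 enzymes was not tested.

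**Figure D5:**
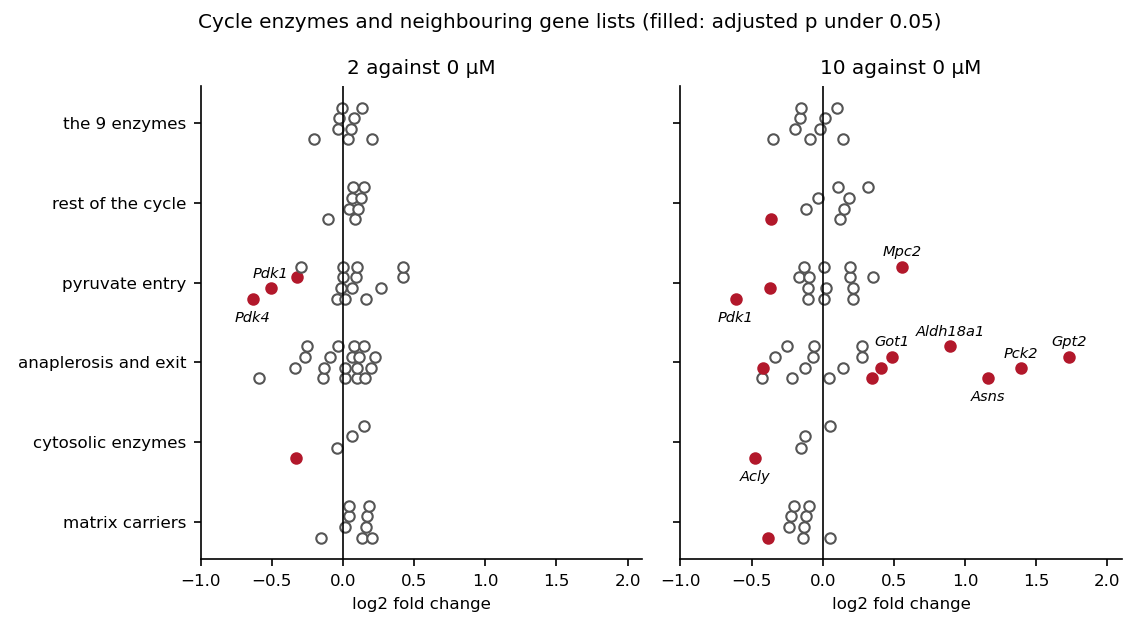
Log2 fold change (x axes) at 2 against 0 µM and 10 against 0 µM RHPS4 of every tested gene in 6 lists (rows), 1 point per gene, with vertical offsets within a row for visibility and filled points for an adjusted p under 0.05. No point of the 9 enzymes is filled at either dose, and the points farthest to the right are Gpt2 (1.73), Pck2 (1.39) and Asns (1.16) at 10 µM.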

How the data were processed

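Ribosomal RNA had been depleted and stranded libraries sequenced. According to the submitters' processing notes, reads were trimmed with Trim Galore and cutadapt, aligned to mm10 with STAR 2.5.2a and counted with featureCounts. The authors deposited whole-number counts per gene, 1 file per library and without normalization. The strand setting, and whether the GENCODE annotation of GRCm38 (the mm10 assembly) used here for positions and lengths is theirs, are not given in the sources used here.

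The deposited counts were analysed with edgeR 4.0.16 in R 4.3.3 over all 8 libraries, with dose as the only factor (filterByExpr, TMM, glmQLFit and glmQLFTest, Benjamini-Hochberg adjustment). The standard error was the log2 fold change divided by the square root of F. Intervals are at 95%. CPM were TMM-scaled, with a prior count of 2 for correlations. A gene's range was apart when no library of one group lay within the other. The script was tested on simulated data. DESeq2 1.42.0 was an alternative, beside RLE size factors, total counts alone, TMM over nuclear genes, filters of none and of at least 10 counts in every library, fits of just the pair of groups in question, a replicate block, each library left out and, added later, depth as a covariate. Python 3.11.15 with numpy 2.4.6 and pandas 2.3.3 was used for the other steps.

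The named genes were every member, 8 other enzymes of the cycle, up to the 6 called genes of each list with the smallest p at either dose, and the 5 genes most like the members. Some of the genes that this rule names are not reported here. The members and lists were chosen with earlier results of these data known. Counting errors and floors cover counting only, since PCR copies are not independent molecules.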

Additional observations from a re-analysis of the deposited data

How the results depend on the processing

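Over 17 alternatives, 399 of 459 log2 fold changes of the 9 enzymes kept their sign and their side of the threshold, and 23 had an adjusted p under 0.05. The members called numbered 0 for 2 µM, 0 for 10 µM and 1 (Idh3a) for 10 against 2 µM, beside 4.16, 13.9 and 23.4% of all genes. Scaling by total counts alone called 1 (Fh1), 1 (Idh3b, higher) and 0, beside 9.56, 28.6 and 25.2% of all genes. Depth as a covariate called 0, 1 (Cs) and 3, beside 4.43, 19.0 and 33.1%. The fit without a filter called 0, 0 and 2, beside 2.33, 8.37 and 14.1%. DESeq2 also called 0, 0 and 2, beside 5.10, 14.6 and 23.8%. The DEG rule called 0 members in each. With 1 library left out these counts ranged from 0 to 1, 0 to 1 and 0 to 3. The members' median log2 fold change under total counts alone was 0.13 at 10 µM and -0.0079 between the doses, and with 1 library left out it ran from -0.22 to -0.021 at 10 µM. The cause of these differences was not tested.

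Values that changed sign were mostly close to 0, and none was called on either side. Under total counts alone, whose scale shifts every gene, these were Idh2 (0.074), Idh3g (0.046) and Ogdh (0.053) at 2 µM, Cs (0.065), Idh3a (0.059), Idh3g (0.13), Ogdh (0.023) and Fh1 (0.20) at 10 µM and Idh3g (0.085) between the doses. Idh2 was at 0.0019 with TMM over nuclear genes and 0.00039 with only the 2 groups compared at 2 µM, at -0.022 and -0.019 without a filter and by DESeq2 at 10 µM, and at -0.017 and -0.015 between the doses. With depth as a covariate, Idh3b (-0.018), Suclg1 (-0.044) and Mdh2 (0.12) at 2 µM and Idh2 (-0.042) at 10 µM changed sign. With 1 library left out the ranges across 0 were -0.045 to 0.071 (Idh2), -0.099 to 0.060 (Idh3g), -0.064 to 0.0081 (Ogdh), -0.093 to 0.19 (Suclg1) and -0.39 to 0.036 (Mdh2) at 2 µM. They were -0.094 to 0.066 (Idh2), -0.30 to 0.37 (Suclg1) and -0.096 to 0.048 (Fh1) at 10 µM, and -0.095 to 0.065 (Idh2), -0.023 to 0.095 (Idh3b) and -0.35 to 0.33 (Suclg1) between the doses.

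The replicate numbers were not taken to pair the libraries. The deviations of same-numbered untreated and 2 µM libraries correlated at 0.20, 0.08 and 0.16, each library best with its own number, and those with 10 µM were negative. With the replicate block, 0 members were called in all 3 comparisons, Idh3a between the doses having -0.26 and an adjusted p of 0.0661, and Mdh2 there changed sign (0.064). Over all genes the block called 476, 1577 and 3159.

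Over all genes 595, 1991 and 3346 were called, 36.3, 48.9 and 49.2% of them higher. Total counts alone called 1367, 4093 and 3606, with 77.9, 92.0 and 78.5% higher, and DESeq2 598, 1780 and 3004, with 37.5, 32.6 and 36.5% higher. Only the 2 groups compared gave 1231 at 10 µM. With 1 library left out the counts ran from 76 to 2061, 679 to 2836 and 1716 to 4244. The small number of libraries, 2 of them at 10 µM, and the wide spread of Suclg1 and Mdh2 limit what could be detected.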
